A study of Mus musculus with 12 samples.

Results

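The 8 genes described here make up the T helper 1 (Th1) program as it can be read from transcripts: the interleukin-12 receptor chains Il12rb1 and Il12rb2, the interleukin-18 receptor chains Il18r1 and Il18rap, the transcription factors Stat4 and Tbx21, the cytokine Ifng and the chemokine receptor Cxcr3. They were taken by gene symbol from a list chosen with earlier results of these data known, and all 8 were found among the 35275 genes measured in CD4+ T cells. All 8 were also among the 13115 genes that reached a mean of 0.5 FPKM over the 12 mice and were therefore tested. FPKM counts fragments relative to the length of the transcript and the depth of the library, so levels of different genes can be set side by side on this scale.

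RNA-Seq was performed on purified CD4+ T cells from 4 groups of 3 mice each. B6 (C57BL/6) and SLE123 mice received anti-CD45RB or no treatment. SLE123 mice are B6 mice that carry the lupus intervals Sle1, Sle2 and Sle3 of the NZM line (B6.NZMSle1/Sle2/Sle3). Anti-CD45RB (clone MB23G2), an antibody against an isoform of the surface phosphatase CD45, was injected intraperitoneally at 100 μg on day 0 and again on days 1, 3, 5 and 7. All mice were females, 9 weeks old by the study's methods and up to 12 weeks old by its legends. The cells were purified by negative magnetic sorting, and a further division by CD25 named in the methods does not appear in the sample labels.

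In the Th1 pathway, interleukin-12 binds the paired chains Il12rb1 and Il12rb2 and activates STAT4, which raises transcription of Ifng and of Il12rb2 itself. T-bet, the product of Tbx21, is the lineage-defining factor of Th1 cells and drives Ifng, Cxcr3 and Il12rb2. Interleukin-18 signals through Il18r1 and Il18rap and acts together with interleukin-12 on interferon-gamma production, and Cxcr3 guides the cells along gradients of interferon-induced chemokines. The same genes are also used by natural killer cells, natural killer T cells and memory CD8+ T cells.

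The deposited values resolved into 13563594 to 23642755 whole fragments per library. The members rested on 129 fragments (Il12rb2 in untreated SLE123 mouse 2) to 3246 fragments (Il18r1) per library, and the lowest of these values, 2.30 FPKM, had an exact 95% Poisson interval of 1.92 to 2.74 FPKM that covers counting error only. All 9 CD4 T cell markers passed the filter in these libraries, and their summed level was 2699 to 3436 FPKM. Albumin and 5 other liver transcripts were summed at 39.0 to 45.9 FPKM in the 6 B6 libraries and at 43.7 FPKM in treated SLE123 mouse 1, but at no more than 0.483 FPKM in the other 5 SLE123 libraries. In the other 11 libraries this signal and strain cannot be told apart, and the calls of the members in the treatment comparison in SLE123 mice and in the comparison of treated strains are also given without treated SLE123 mouse 1. B cell markers summed to 149 FPKM in untreated SLE123 mouse 3, against 38.9 and 54.1 FPKM in the other untreated SLE123 mice. In bulk RNA, fewer cells of a type and less RNA per cell cannot be told apart. Nothing in the labels says from which litters or cages the mice came, and p-values measure the spread between these mice.

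Of the members, 3 lie on chromosome 1, which also carries the Sle1 interval, whose ends were not analysed here. Il18r1 (1:40465552-40500854, plus strand of GRCm38) is followed after 14507 bases by Il18rap (1:40515362-40551705, plus strand), and Stat4 occupies 1:51987148-52107189 on the plus strand. Il12rb1 lies at 8:70808449-70821424 (plus strand), Il12rb2 at 6:67291318-67376188 (minus strand), Tbx21 at 11:97098071-97115331 (minus strand), Ifng at 10:118441046-118445892 (plus strand) and Cxcr3 at X:101731535-101734269 (minus strand). Chromosomes 4 and 7, which carry Sle2 and Sle3, hold none of the members. Of the 3794 exonic bases of Il12rb2, 1519 also lie in exons of Serbp1 on the opposite strand, a gene with a mean of 90.1 FPKM, and the sources used here do not say whether fragments were counted by strand. Serbp1 itself differed by -0.01 ± 0.04 (log2 scale, SE) between treated and untreated B6 mice and by -0.03 ± 0.10 in SLE123 mice.

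The 250 bases before the annotated transcription start are shown for the 5 members that rose with treatment in B6 mice and for Cxcr3, the member with the highest level, because these genes moved with treatment or strain. The sequences are those of RefSeq (GRCm38.p6), written 5′ to 3′ on the gene's own strand, and for Il18r1 the window of the start at 40466006 is given out of 3. The other 2 windows of Il18r1, including the one at its annotated gene start, held no match to the motif described next. The start used for Cxcr3 lies 122 bases from the nearest start in GENCODE M21. Capitals mark matches to the interferon-gamma-activated sequence, the STAT dimer motif TTCNNNGAA, searched on both strands.
Ifng (chr10:118440796-118441045, plus strand): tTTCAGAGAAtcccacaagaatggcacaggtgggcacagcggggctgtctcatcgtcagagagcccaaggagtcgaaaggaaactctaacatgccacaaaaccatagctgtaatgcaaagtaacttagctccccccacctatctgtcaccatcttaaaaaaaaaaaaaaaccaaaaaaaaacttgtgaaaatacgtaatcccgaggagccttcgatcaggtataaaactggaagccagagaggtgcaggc
Il12rb2 (chr6:67376189-67376438, minus strand): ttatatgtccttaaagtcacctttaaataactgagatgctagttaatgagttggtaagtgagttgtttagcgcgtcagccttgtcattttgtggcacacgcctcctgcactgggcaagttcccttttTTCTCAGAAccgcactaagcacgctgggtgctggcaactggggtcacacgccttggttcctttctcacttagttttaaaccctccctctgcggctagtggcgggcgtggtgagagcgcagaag
Il18r1 (chr1:40465756-40466005, plus strand): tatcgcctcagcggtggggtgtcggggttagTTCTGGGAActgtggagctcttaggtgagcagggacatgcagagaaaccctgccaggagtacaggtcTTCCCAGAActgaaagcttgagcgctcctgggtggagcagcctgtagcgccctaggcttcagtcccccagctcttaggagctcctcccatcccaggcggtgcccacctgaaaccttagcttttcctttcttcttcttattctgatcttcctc
Il18rap (chr1:40515112-40515361, plus strand): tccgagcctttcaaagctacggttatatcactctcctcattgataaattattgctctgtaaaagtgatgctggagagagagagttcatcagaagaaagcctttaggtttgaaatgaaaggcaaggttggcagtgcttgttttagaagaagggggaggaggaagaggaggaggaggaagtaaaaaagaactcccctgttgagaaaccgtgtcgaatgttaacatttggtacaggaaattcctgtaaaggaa
Tbx21 (chr11:97115332-97115581, minus strand): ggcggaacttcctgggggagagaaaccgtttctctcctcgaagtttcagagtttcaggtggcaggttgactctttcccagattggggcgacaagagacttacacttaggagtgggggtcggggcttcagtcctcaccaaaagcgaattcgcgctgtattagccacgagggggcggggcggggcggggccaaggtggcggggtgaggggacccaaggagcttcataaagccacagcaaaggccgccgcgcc
Cxcr3 (chrX:101734148-101734397, minus strand): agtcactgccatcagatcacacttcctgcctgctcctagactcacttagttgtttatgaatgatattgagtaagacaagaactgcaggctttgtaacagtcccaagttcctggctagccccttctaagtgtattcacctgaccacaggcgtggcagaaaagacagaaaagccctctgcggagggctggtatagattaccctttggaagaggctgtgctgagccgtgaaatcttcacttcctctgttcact
The window of Ifng held 1 match, from position -249 to -241 relative to the start, the window of Il12rb2 held 1 from -123 to -115, and that of Il18r1 held 2, from -219 to -211 and from -152 to -144. Over all members, 3 of the 10 windows that 7 members had in the table held the motif, and 7.02% of all 32851 promoter windows of this length did. The T-box motif GGTGTGA, which T-bet binds, was found in 0 of the 10 windows and in 3.33% of all windows. A match describes letters in this window only, and no promoter of Il12rb1 is shown.

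Expression of the members spanned from about the level of a weakly expressed receptor to that of an abundant surface protein. Averaged over the 12 mice, Cxcr3 was at 62.3 FPKM, Il18r1 at 37.9, Stat4 at 21.3, Ifng at 17.3, Tbx21 at 13.6, Il18rap at 11.9, Il12rb1 at 11.8 and Il12rb2 at 4.06 FPKM. The partner chains of both receptors were thus unequal in level, with Il18rap below Il18r1 and Il12rb2 below Il12rb1 in every mouse.

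**Figure D1:**
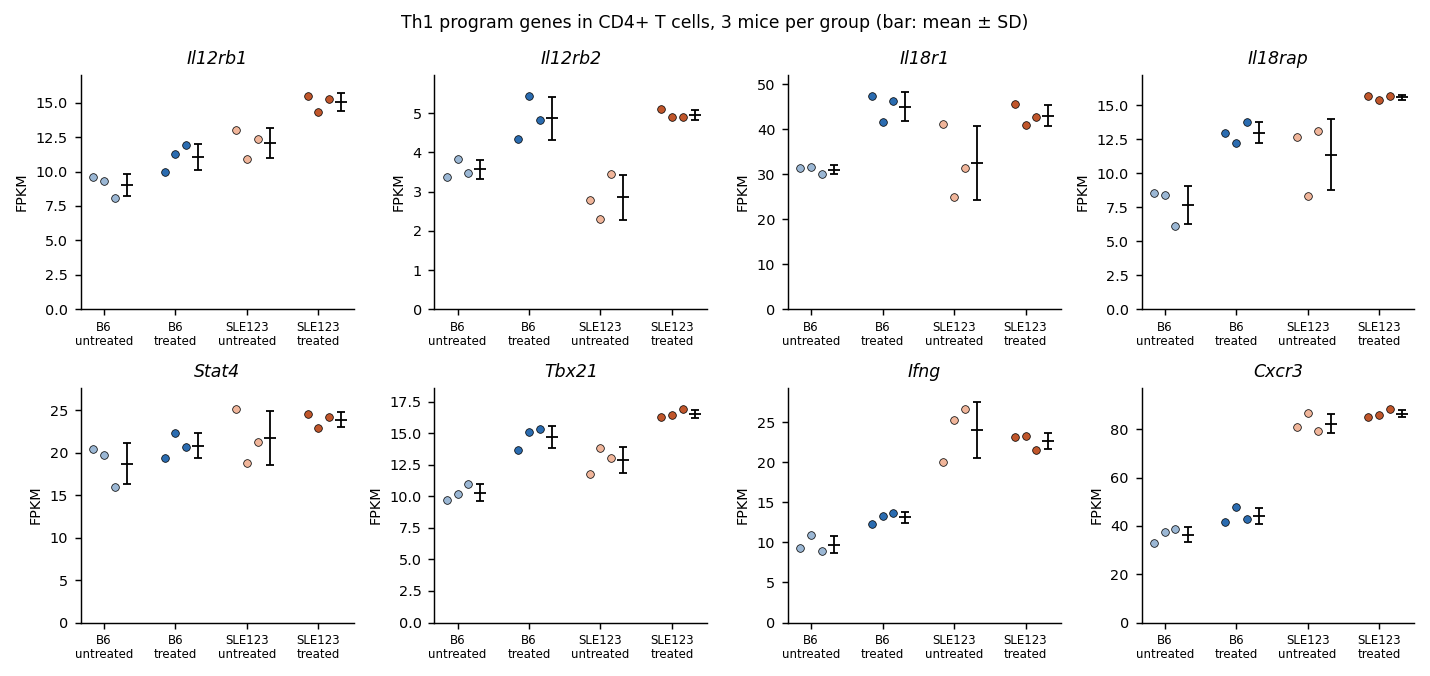
FPKM of the 8 Th1 program genes in each of the 12 mice (points), with the mean and SD of each group of 3 beside them. Treated B6 mice lie above untreated B6 mice for all genes other than Stat4, and Ifng and Cxcr3 are separated by strain.

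The first comparison asked how the Th1 program responded to anti-CD45RB in B6 mice. The receptors for interleukin-18, T-bet, interferon-gamma and the inducible interleukin-12 receptor chain rose with treatment, by 1.28-fold to 1.63-fold on the log2(FPKM + 1) scale, which understates the change of low genes. In limma fits over all tested genes, 5 of the 8 members were called higher at an adjusted p under 0.05 and 0 were called lower, against 8.74% of all tested genes called higher. In 7 of the 8 members every treated mouse lay above every untreated one, which held for 19.4% of all tested genes. The median log2 fold change of the members was 0.38, and that of all tested genes was -0.002.

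Of the receptors, Il18rap, the signaling chain for interleukin-18, measured 13.0, 12.2 and 13.8 FPKM in treated B6 mice and 8.52, 8.40 and 6.09 FPKM in untreated B6 mice. All 3 treated mice were higher, and the difference was the largest of the 8 on the log2 scale, at 0.70 ± 0.12 (SE, limma adjusted p = 0.0138). The ligand-binding chain Il18r1 measured 47.4, 41.5 and 46.2 FPKM against 31.4, 31.7 and 30.0 FPKM. The groups were apart, and the log2 difference was 0.52 ± 0.06 (limma adjusted p = 0.00265), the smallest adjusted p among the members. Il12rb2, the chain that recruits STAT4, measured 4.35, 5.44 and 4.82 FPKM with treatment and 3.37, 3.84 and 3.48 FPKM without. It rose by 0.36 ± 0.09 on the log2 scale (limma adjusted p = 0.0424), close to the threshold. Il12rb1, the chain shared with the interleukin-23 receptor, measured 10, 11.3 and 11.9 FPKM against 9.60, 9.33 and 8.11 FPKM. These groups did not overlap either, but the log2 difference of 0.27 ± 0.09 did not pass the test (limma adjusted p = 0.0766).

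Tbx21 measured 13.7, 15.1 and 15.3 FPKM in treated B6 mice and 9.67, 10.2 and 11 FPKM in untreated ones. All 3 treated mice were higher, and the log2 difference was 0.48 ± 0.07 (limma adjusted p = 0.0066). Stat4, which relays the interleukin-12 signal, measured 19.4, 22.3 and 20.7 FPKM against 20.4, 19.7 and 16.0 FPKM, and it was the only member whose groups overlapped. Its log2 difference was 0.15, with 95% limits of -0.08 to 0.38. Ifng measured 12.3, 13.3 and 13.7 FPKM with treatment against 9.35, 10.9 and 8.91 FPKM without, a log2 difference of 0.40 ± 0.08 (limma adjusted p = 0.0227). Cxcr3 measured 41.7, 47.7 and 42.9 FPKM against 33.1, 37.4 and 38.8 FPKM, and its log2 difference of 0.27 ± 0.07 did not pass (limma adjusted p = 0.0532).

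Tbx21 and Il18r1 kept their calls when any 1 of the 6 B6 mice was left out, and Il18rap lost its call only without treated mouse 5. The call of Ifng was lost without treated mouse 3 or 5 or untreated mouse 3 or 5, and that of Il12rb2 was kept only without treated mouse 1. The number of members called was 2 without treated mouse 5 and 3 without treated mouse 3, untreated mouse 3 or untreated mouse 5, and only Il18r1 remained called when all 35275 genes were tested without a filter. On whole fragments (limma-voom), 7 of the 8 were called, all but Stat4.

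Transcripts of other cell types moved with this comparison. Of the 8 natural killer cell markers 7 were tested and 6 were called higher in treated B6 mice. Their summed level was 72.3 to 78.5 FPKM with treatment and 18.4 to 23.3 FPKM without, and Ncr1, the natural killer receptor NKp46, was at 5.73 ± 0.59 FPKM (SD, n = 3) against 0.349 ± 0.130 FPKM. Klra8 averaged 2.05 FPKM in treated and 0.0527 FPKM in untreated B6 mice, and Klra4 1.03 and 0.0499 FPKM. The lowest untreated B6 mouse was at 0 for both. B cell markers summed to 17.5 to 24.2 FPKM against 4.70 to 5.44 FPKM (4 of 5 called higher), myeloid markers to 53.7 to 122 FPKM against 8.48 to 15.1 FPKM (5 of 6), basophil markers to 12.4 to 28.9 FPKM against 2.41 to 3.04 FPKM (4 of 5) and erythroid markers to 3.17 to 9.11 FPKM against 0.706 to 1.61 FPKM (2 of 3). Markers of natural killer T and gamma-delta T cells summed to 69.6 to 78.7 FPKM against 42.5 to 54.1 FPKM, with 2 of 4 called higher. Of the CD8 T cell markers, Cd8b1 was tested and not called. Both markers together summed to 12.7 to 19.4 FPKM against 11.1 to 13.0 FPKM, most of it Cd8b1. Cd8a, which did not pass the filter, was at 0.644 to 1.92 FPKM against 0.159 to 0.257 FPKM, without overlap. CD4 T cell markers summed to 2912 to 2974 FPKM against 3187 to 3330 FPKM, and 3 of 9 were called lower. The part of these cell types in the members' values was not tested.

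**Figure D2:**
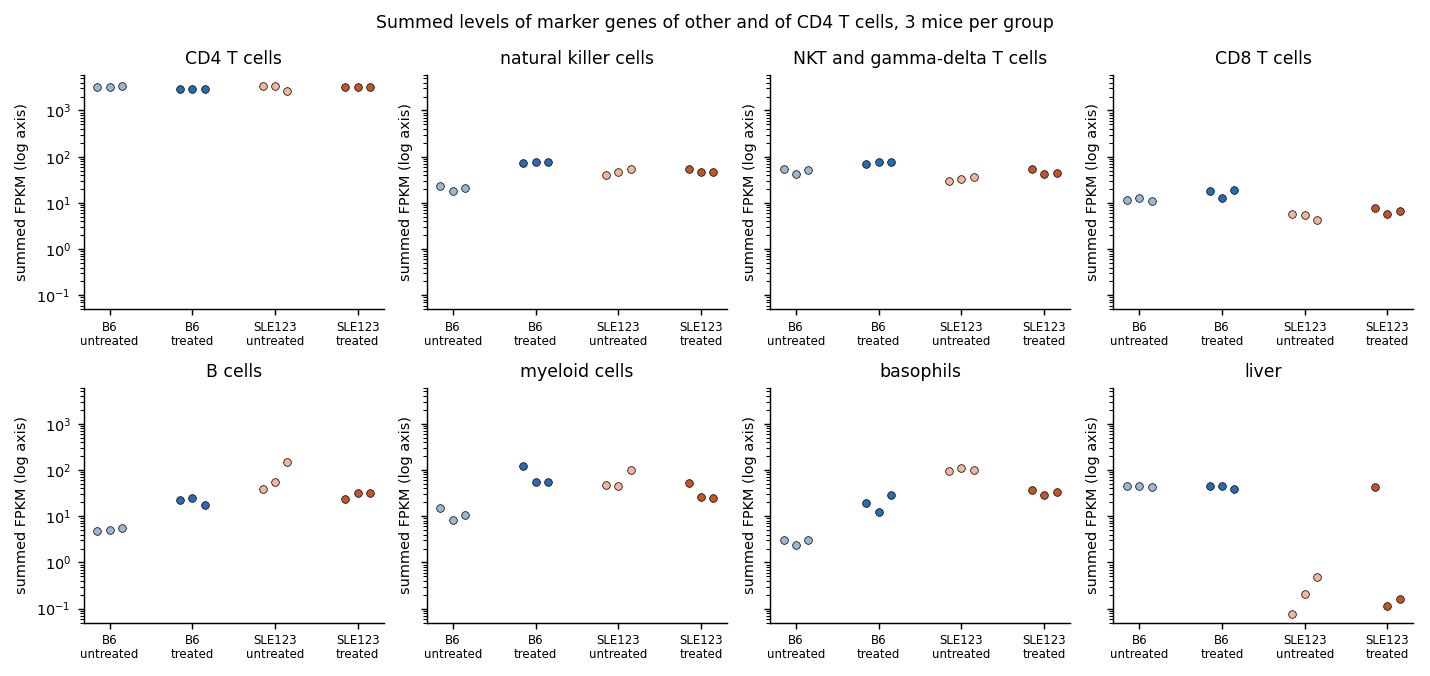
Summed FPKM of marker gene lists in each mouse on a shared log axis, 3 mice per group (points). Natural killer, B cell, myeloid and basophil markers are higher in treated than in untreated B6 mice, natural killer markers overlap between treated and untreated SLE123 mice, and liver transcripts appear in the 6 B6 libraries and 1 treated SLE123 library.

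In SLE123 mice, the same treatment was followed by differences of similar direction in 7 of the 8 members, but none passed the test. With limma, 0 of the 8 members were called, 5 were higher at an unadjusted p under 0.05, and limma-voom on whole fragments also called 0. Of all tested genes 0.0152% were called higher, and without adjustment 942 passed 0.05 in that direction and 427 in the other. In 4 of the 8 members the treated SLE123 mice lay above all untreated ones, against 13.7% of all tested genes. The median log2 fold change of the members was 0.32 and that of all tested genes was 0.038.

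Il12rb2 had the largest difference, with 5.11, 4.89 and 4.89 FPKM in treated and 2.79, 2.30 and 3.46 FPKM in untreated SLE123 mice. The treated mice were all higher, by 0.64 ± 0.13 on the log2 scale (limma adjusted p = 0.308), and this was the 1 member called when all 12 mice shared a fit (limma adjusted p = 0.0331). Tbx21 measured 16.3, 16.4 and 16.9 FPKM against 11.8, 13.8 and 13.0 FPKM, without overlap, and the log2 difference was 0.34 ± 0.08 (limma adjusted p = 0.415). Il12rb1 measured 15.5, 14.3 and 15.3 FPKM against 13.0, 10.9 and 12.4 FPKM, a log2 difference of 0.30 ± 0.09 (limma adjusted p = 0.449).

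The interleukin-18 receptor genes varied widely among untreated SLE123 mice. Il18rap measured 15.7, 15.4 and 15.7 FPKM with treatment and 12.7, 8.35 and 13.1 FPKM without, a log2 difference of 0.45 ± 0.16 (limma adjusted p = 0.466). Il18r1 measured 45.5, 41.0 and 42.6 FPKM against 41.2, 24.9 and 31.3 FPKM, and here the groups overlapped. The SD of Il18r1 was 25.3% of its mean in untreated SLE123 mice and 2.85% in untreated B6 mice, where counting error alone gives 1.96% and 2.15%. Untreated mouse 2 was the lowest of its group for both chains, for Il12rb2, for Il12rb1 and for Stat4, and the highest for Tbx21 and Cxcr3.

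Ifng, Cxcr3 and Stat4 showed no difference beyond their spread. Ifng measured 23.1, 23.3 and 21.5 FPKM in treated and 20.0, 25.3 and 26.6 FPKM in untreated SLE123 mice, and the 95% limits of the log2 difference were -0.34 to 0.20. Cxcr3 measured 85.2, 86.0 and 88.3 FPKM against 81.1, 86.6 and 79.3 FPKM, with limits of -0.11 to 0.25. Stat4 measured 24.5, 22.9 and 24.2 FPKM against 25.1, 18.8 and 21.2 FPKM, with limits of -0.12 to 0.40. Without treated mouse 1, whose library holds the liver transcripts, the log2 difference was 0.63 for Il12rb2, 0.44 for Il18rap, 0.38 for Il18r1, 0.35 for Tbx21, 0.27 for Il12rb1, 0.12 for Stat4, 0.08 for Cxcr3 and -0.09 for Ifng. Without this mouse 0 members were called, and 3 in place of 5 had an unadjusted p under 0.05.

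Natural killer cell markers summed to 46.8 to 55.5 FPKM in treated and 40 to 53.1 FPKM in untreated SLE123 mice, and 0 of 7 were called. Within this list Klrb1c differed by 1.04 ± 0.16 and Tyrobp by -1.16 ± 0.23 on the log2 scale, both without overlap (limma adjusted p = 0.178 and 0.308). Markers of natural killer T and gamma-delta T cells summed to 42.4 to 55 FPKM in treated and 30.5 to 37 FPKM in untreated SLE123 mice. Their median log2 difference was 0.48, and 0 of 4 were called, although all 4 were higher at an unadjusted p under 0.05 and 3 did not overlap. Ncr1 was at 0.427 ± 0.193 FPKM (SD, n = 3) against 0.507 ± 0.517 FPKM, and Klra8 and Klra4 were at 0 in 2 of the 3 mice of each group. Gzma alone made up 28.3 ± 3.1 FPKM of the sum in treated and 21.5 ± 1.6 FPKM in untreated SLE123 mice. B cell markers summed to 23.1 to 32.1 FPKM with treatment against 38.9 to 149 FPKM without, myeloid markers to 25.1 to 51.4 against 46.0 to 98.9 FPKM, and basophil markers to 28.9 to 36.4 against 96.3 to 108 FPKM, with 2 of 5 basophil markers called lower. Their part in the members' values was not tested.

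Whether the response differed between strains was tested with the interaction term of the 12 mice. With limma, 0 of the 8 members were called, against 3.64% of all tested genes, 1 had an unadjusted p under 0.05, and limma-voom also called 0. That member was Ifng, whose response in SLE123 was lower than in B6 by -0.47 ± 0.15 on the log2 scale (limma adjusted p = 0.0934). Without untreated SLE123 mouse 1, which had the lowest Ifng of its group, the difference was -0.59 (limma adjusted p = 0.00686), but without this mouse 2917 of the 13115 genes were called in place of 478. Over the leave-outs of single mice the difference of Ifng ranged from -0.591 to -0.392. For Tbx21 the 95% limits of the difference between strains were -0.36 to 0.08, for Cxcr3 -0.42 to 0.02 and for Il12rb2 -0.06 to 0.62. The limits were wider for the interleukin-18 receptor, at -0.73 to 0.22 for Il18rap and -0.52 to 0.33 for Il18r1. For Il12rb1 they were -0.24 to 0.29 and for Stat4 -0.35 to 0.33.

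**Figure D3:**
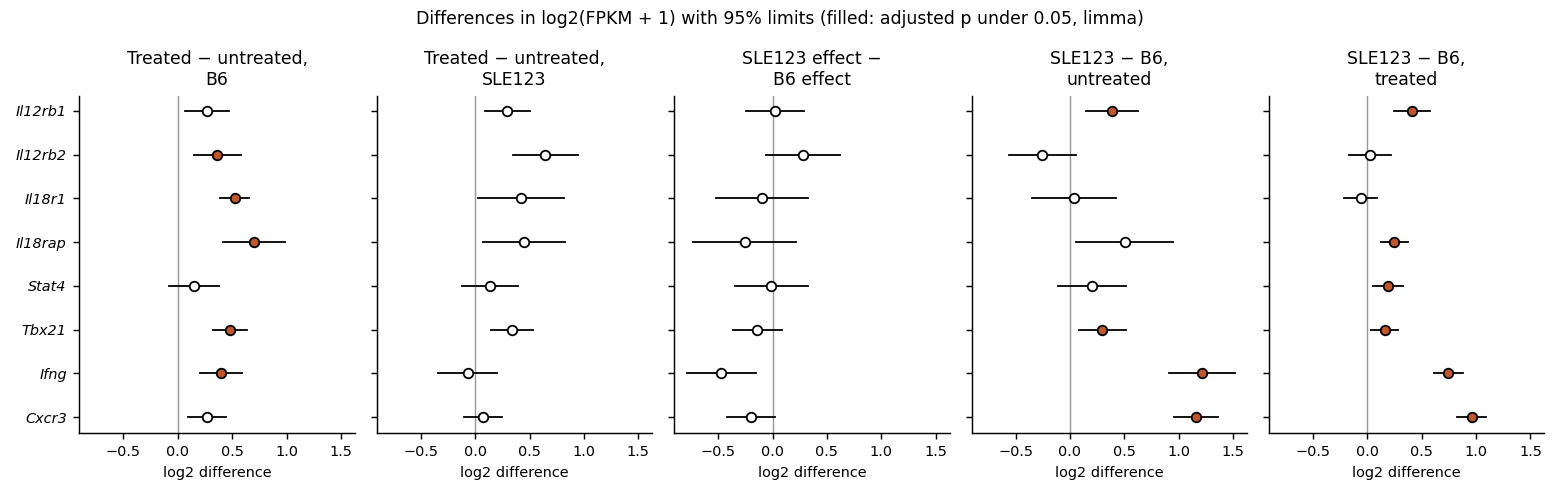
Differences in log2(FPKM + 1) with 95% limits for each member in the 2 treatment comparisons, their interaction and the 2 strain comparisons (limma, 3 mice per group). Filled points passed an adjusted p of 0.05: 5 members in treated B6 mice, 0 in treated SLE123 mice, 0 in the interaction, 4 between untreated strains and 6 between treated strains.

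The comparison of untreated mice asked how the program stood before treatment in lupus-prone CD4+ T cells. Ifng and Cxcr3 were more than doubled in SLE123, while the genes upstream of them differed less. With limma, 4 of the 8 members were called higher and 0 lower, against 22.8% of all tested genes called higher, and in 4 members the groups did not overlap, which held in this direction for 29.1% of all tested genes. The members' median log2 difference was 0.34 and that of all tested genes -0.025.

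Ifng was at 24.0 ± 3.5 FPKM in untreated SLE123 and 9.72 ± 1.05 FPKM in untreated B6 mice (SD, n = 3), a log2 difference of 1.21 ± 0.13 (limma adjusted p = 3.9e-04). Cxcr3 was at 82.3 ± 3.8 against 36.4 ± 3.0 FPKM, a log2 difference of 1.16 ± 0.09 (limma adjusted p = 8.4e-05). Both calls held with each of the 6 mice left out. Il12rb1 was at 12.1 ± 1.1 against 9.01 ± 0.80 FPKM (log2 difference 0.39 ± 0.10, limma adjusted p = 0.0194), and its call was lost without untreated B6 mouse 4 or 5 or untreated SLE123 mouse 3. Tbx21 was at 12.9 ± 1.1 against 10.3 ± 0.7 FPKM (log2 difference 0.30 ± 0.09, limma adjusted p = 0.0345), and its call was lost without any 1 of the B6 mice or without SLE123 mouse 2 or 3. The count of members called was 2 without untreated B6 mouse 4, untreated B6 mouse 5 or untreated SLE123 mouse 3.

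The other 4 members were not called. Il18rap was at 11.4 ± 2.6 against 7.67 ± 1.37 FPKM (log2 difference 0.50 ± 0.19, limma adjusted p = 0.0669). Il12rb2 was at 2.85 ± 0.58 FPKM in untreated SLE123 and 3.56 ± 0.24 FPKM in untreated B6 mice, the only member with the lower mean in SLE123, and the 95% limits of the log2 difference were -0.57 to 0.06. Stat4 was at 21.7 ± 3.2 against 18.7 ± 2.4 FPKM and Il18r1 at 32.5 ± 8.2 against 31.0 ± 0.9 FPKM, both with overlapping groups.

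The smaller strain differences depended on scaling. When each library was rescaled to TPM, which divides by the sum over all genes, immunoglobulin transcripts included, the median of all tested genes shifted to -0.379 between untreated strains, and of the 7888 genes called 1914 were higher in SLE123, against 2990 of 5621 on the deposited scale. On the TPM scale Tbx21 differed by -0.06 and Il12rb1 by 0.04, and relative to the median of all genes they stood at 0.32 and 0.42. Ifng stayed at 0.88 and Cxcr3 at 0.79 on the TPM scale, both still called. Il12rb2 differed by -0.63 on this scale and was called lower in SLE123 (limma adjusted p = 0.0108). When the libraries were set to the same sum without immunoglobulin genes, Tbx21 differed by 0.38 and all 4 members were called, with 3364 of 5005 called genes higher in SLE123.

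After treatment, 6 of the 8 members were called higher in SLE123 than in B6 mice and 0 lower, against 29.6% of all tested genes called higher. These 6 also did not overlap between strains, which held for 34.7% of all tested genes in this direction. This comparison shares its mice with the comparisons above and is not independent of them. Cxcr3 was at 86.5 ± 1.6 FPKM in treated SLE123 and 44.1 ± 3.2 FPKM in treated B6 mice, and on the log2 scale the strains differed by 0.96 ± 0.06 (limma adjusted p = 4.5e-05). Ifng was at 22.6 ± 1.0 against 13.1 ± 0.7 FPKM, a log2 difference of 0.74 ± 0.06 (limma adjusted p = 1.0e-04). Il12rb1 was at 15 ± 0.7 against 11.1 ± 1.0 FPKM (log2 difference 0.41 ± 0.07) and Il18rap at 15.6 ± 0.2 against 13.0 ± 0.8 FPKM (0.25 ± 0.05). These 4 calls held with each mouse left out in turn, but that of Il18rap was lost on the TPM scale (0.08), with all 12 mice in a fit and with a block for replicate number (limma adjusted p = 0.391, 0.214 and 0.0544).

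Stat4 was at 23.8 ± 0.9 against 20.8 ± 1.4 FPKM (log2 difference 0.19 ± 0.06, limma adjusted p = 0.0318), and its call was lost without treated B6 mouse 1 or 5 or treated SLE123 mouse 1 or 3 (limma adjusted p = 0.0762 to 0.0909). It was also lost on the TPM scale (0.02), without a filter, with all 12 mice in a fit and with a block for replicate number. Tbx21 was at 16.5 ± 0.3 against 14.7 ± 0.9 FPKM (log2 difference 0.16 ± 0.05, limma adjusted p = 0.0422), and its call was lost with any 1 of the 6 mice left out. On the TPM scale Tbx21 differed by -0.01 where the median of all tested genes was -0.135. On that scale 2442 of 6922 called genes were higher in SLE123, against 3881 of 6836 as deposited and 5095 of 7107 when the libraries were set to the same sum without immunoglobulin genes. Il12rb2 was at 4.96 ± 0.13 against 4.87 ± 0.55 FPKM and Il18r1 at 43.0 ± 2.3 against 45.0 ± 3.1 FPKM, with overlapping groups and 95% limits of -0.17 to 0.22 and -0.21 to 0.09.

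Markers of other cells also differed between strains. Of all tested genes 22.8% were called higher and 20.1% lower between untreated strains, and 29.6% and 22.5% between treated strains. In untreated SLE123 against untreated B6 mice, B cell markers (38.9 to 149 against 4.70 to 5.44 FPKM), basophil markers (96.3 to 108 against 2.41 to 3.04 FPKM) and erythroid markers (25.5 to 41.3 against 0.706 to 1.61 FPKM) had all tested genes called higher, and 5 of 6 myeloid markers were called higher. Natural killer markers summed to 40 to 53.1 against 18.4 to 23.3 FPKM, with Gzma and Tyrobp called higher and Klrb1c lower. In treated mice the order of natural killer markers was the other way, with 46.8 to 55.5 FPKM in SLE123 and 72.3 to 78.5 FPKM in B6 mice, and 6 of 7 were called lower in SLE123 while Gzma was higher. Cd8b1 was lower in SLE123 in both comparisons. Natural killer T and gamma-delta T cell markers were lower in SLE123, at 30.5 to 37 against 42.5 to 54.1 FPKM in untreated mice. In treated mice they were at 42.4 to 55 against 69.6 to 78.7 FPKM, and 2 of 4 were called lower in each comparison. Of 9 CD4 T cell markers, 1 was called higher between untreated strains, and 5 higher and 1 lower between treated strains. The part of the other cell types in the members' strain differences was not tested.

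Ordered by mean level, the 4 groups fell into different sequences for different members. For Cxcr3 and Ifng both B6 groups stood below both SLE123 groups, with the treated and untreated SLE123 mice overlapping. For Il12rb2 both untreated groups stood below both treated groups, and neighbors within each pair overlapped. Il18r1 was also lower in both untreated groups, but its untreated SLE123 mice overlapped with those above and below. For Tbx21 and Il18rap the order was untreated B6, untreated SLE123, treated B6 and treated SLE123, and the treated SLE123 mice lay above the treated B6 mice in both. For Il12rb1 the order was untreated B6, treated B6, untreated SLE123 and treated SLE123, where only treated B6 and untreated SLE123 mice overlapped. All neighboring groups overlapped for Stat4.

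Ratios between members within a mouse, which do not depend on the scaling of a library, are given next. The ratio of Ifng to Tbx21 was 0.812 to 1.07 in untreated B6, 0.877 to 0.899 in treated B6, 1.70 to 2.05 in untreated SLE123 and 1.27 to 1.42 in treated SLE123 mice. All SLE123 mice were above all B6 mice, and the treated SLE123 mice were below the untreated ones. The ratio of Cxcr3 to Tbx21 was 3.42 to 3.68 in untreated B6, 2.80 to 3.15 in treated B6, 6.10 to 6.89 in untreated SLE123 and 5.22 to 5.24 in treated SLE123 mice. In both strains this ratio was lower in every treated mouse than in every untreated mouse of the same strain. Il12rb2 relative to Il12rb1 was 0.351 to 0.429 in untreated B6 and 0.405 to 0.480 in treated B6 mice, which overlap, and 0.211 to 0.279 in untreated SLE123 against 0.320 to 0.342 in treated SLE123 mice, which do not. Il18rap relative to Il18r1 was 0.203 to 0.272 in untreated and 0.274 to 0.299 in treated B6 mice, and 0.309 to 0.419 and 0.346 to 0.375 in untreated and treated SLE123 mice. With 3 mice a group an exact permutation test of a ratio cannot go below p = 0.1, and these ratios are given as descriptions.

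**Figure D4:**
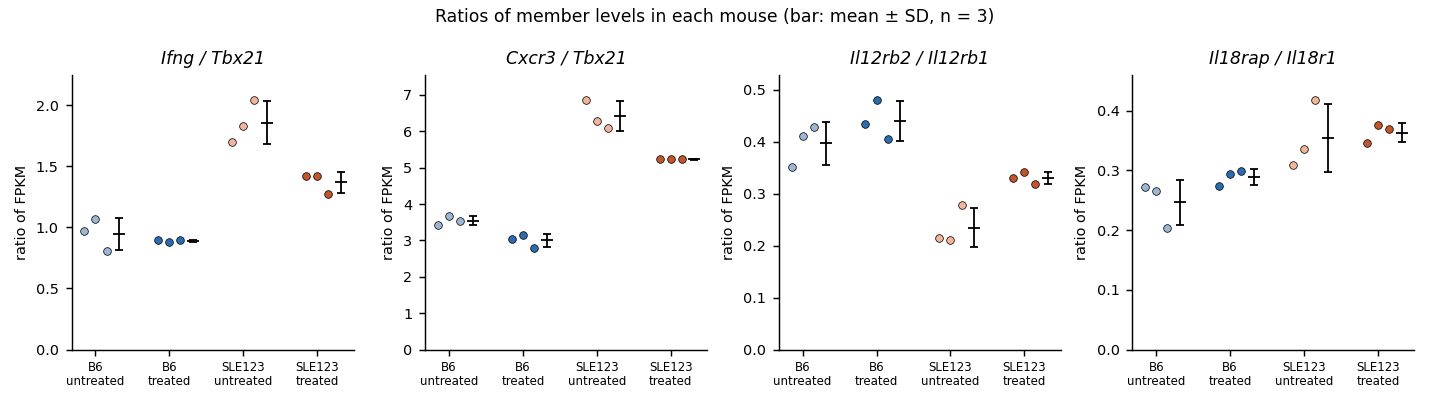
Ratios of FPKM between members in each mouse (points), with the mean and SD of each group of 3. Ifng and Cxcr3 relative to Tbx21 are higher in all SLE123 mice than in all B6 mice, and Il12rb2 relative to Il12rb1 is lowest in untreated SLE123 mice.

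The members did not vary as 1 unit between mice of the same group. After each group's mean was subtracted, the log2 levels of Il12rb1, Stat4 and Il18rap had correlations of 0.75 to 0.87 with each other over the 12 mice, while Tbx21 had correlations of -0.34, -0.64 and -0.66 with them and of 0.68 with Cxcr3. Without the 3 untreated SLE123 mice, over 9 mice, the first 3 values were 0.71 to 0.86, those of Tbx21 were 0.01, -0.32 and -0.58, and that with Cxcr3 was 0.77. These correlations come from few mice whose values share library and depth, and they are descriptions only.

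The genes whose pattern over the 12 mice was most like the mean of the members were looked up among 10216 genes averaging 1 FPKM or more, without the members, genes lacking a symbol, predicted Gm or Rik genes and immunoglobulin or T cell receptor segments. Ctnna1 (alpha-catenin, a junction protein) came first with a Pearson correlation of 0.955, followed by Sept2 (0.946), Il2rb (0.942), Apaf1 (0.930), Dhx58 (0.927), Oas3 (0.925), Atp2b1 (0.922) and Cgrrf1 (0.916). After group means were subtracted the correlation was 0.80 for Ctnna1, 0.80 for Sept2, 0.87 for Atp2b1 and 0.13 for Oas3, so that the likeness of Oas3, an interferon-induced antiviral enzyme, lay between groups and not between mice. Il2rb, the chain that confers responses to interleukin-2 and interleukin-15, averaged 90.9 FPKM in untreated B6, 146 in treated B6, 150 in untreated SLE123 and 179 FPKM in treated SLE123 mice.

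Other genes of the Th1 pathway were read from a list of 32 genes, of which 29 were tested. In B6 mice, 8 were called higher with treatment and 3 lower, and the list's median log2 fold change was 0.12 against -0.002 for all tested genes. Of all tested genes 8.74% were called higher and 6.12% lower in this comparison. The largest were chemokines and a granule protein that natural killer and CD8+ T cells also make. Ccl3 was at 13.3 ± 4.7 FPKM with treatment and 0.741 ± 0.386 FPKM without (SD, n = 3), Ccl4 at 5.61 ± 1.60 against 0.523 ± 0.253, Ccl5 at 200 ± 31 against 57.5 ± 2.0 and Nkg7 at 68.7 ± 7.0 against 33.3 ± 2.5 FPKM. Their log2 differences were 3, 2.10, 1.77 and 1.02, with limma adjusted p of 0.00187, 0.00233, 5.1e-04 and 0.00114. The cytokines Tnf and Lta, which Th1 cells also produce, were called lower, at -0.39 ± 0.08 and -0.32 ± 0.05 (limma adjusted p = 0.0237 and 0.00819), as was the interleukin-27 receptor gene Il27ra at -0.14. In SLE123 mice 0 of the 29 were called.

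Between untreated strains 12 of the 29 were called higher in SLE123 and 3 lower, with a median of 0.19, and of all tested genes 22.8% were called higher and 20.1% lower. Bhlhe40, a cofactor of interferon-gamma production in Th1 cells, was at 33.2 ± 3.1 FPKM in SLE123 and 6.97 ± 0.46 FPKM in B6 mice (log2 difference 2.10 ± 0.09, limma adjusted p = 1.1e-05). Ccl4 and Ccl3 were higher by 2.12 ± 0.20 and 2.07 ± 0.19 on the log2 scale, Il18 by 1.77 ± 0.20 and Gadd45b, a stress sensor in the path to Ifng, by 1.59 ± 0.18. Ifngr2, the signaling chain of the interferon-gamma receptor, was called lower, at 9.28 ± 2.61 against 20.6 ± 1.2 FPKM (log2 difference -1.10 ± 0.18, limma adjusted p = 0.00291). Ifngr1 and Il27ra were the other genes called lower, at -0.34 and -0.43. Between treated strains 13 were called higher and 6 lower (29.6% and 22.5% of all tested genes), with Bhlhe40 at 1.63 ± 0.09, Gadd45b at 1.47 ± 0.11 and Ifngr2 at -1.08 ± 0.13.

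Genes induced by interferon-gamma were read from a list of 21, of which 17 were tested. With treatment in B6 mice 5 were called higher and 0 lower, led by Ciita, the master regulator of MHC class II, at 1.20 ± 0.20 against 0.179 ± 0.128 FPKM (log2 difference 0.90 ± 0.11) and Irf8, a factor of myeloid and B cells, at 10.5 ± 2.0 against 5.14 ± 0.25 FPKM (0.88 ± 0.13, limma adjusted p = 0.00504 and 0.00823). Both are highly expressed in B cells and myeloid cells, whose markers rose in the same mice. The part of these cells in the values of Ciita and Irf8 was not tested. The other 3 called genes were the GTPase genes Igtp, Irgm2 and Gbp3, at 0.45, 0.37 and 0.33. The list's median was 0.10 in B6 mice, where 8.74% of all tested genes were called higher and 6.12% lower. In SLE123 mice 0 were called and the median was 0.14, with 0.0152% of all tested genes called higher and 0.0229% lower. Between untreated strains 13 of the 17 were called higher in SLE123 and 0 lower, with a median of 0.63 against -0.025 for all genes. Of all tested genes 22.8% were called higher and 20.1% lower in this comparison. Cxcl10, a ligand of Cxcr3, was at 13.0 ± 3.4 FPKM in untreated SLE123 and 1.59 ± 0.36 FPKM in untreated B6 mice (log2 difference 2.41 ± 0.20, limma adjusted p = 1.4e-04). Between treated strains 14 were called higher and 1, Ciita, lower at -0.50, against 29.6% and 22.5% of all tested genes. Those higher included Cxcl10 at 1.97 ± 0.18, the GTPase gene Iigp1 at 1.63 ± 0.04 and the guanylate-binding protein gene Gbp3 at 1.32 ± 0.05 on the log2 scale.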

How the data were processed

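RNA-Seq was carried out on CD4+ T cells of 12 mice (4 groups of 3). Per the labels, the study's processing used CASAVA 1.8, STAR and the mm10 build, on poly(A) libraries. The authors deposited 1 table of FPKM values, normalized to gene length and library size, for 35275 genes, of which 34490 (97.8%) matched GENCODE M21 (GRCm38) identifiers, from which symbols and positions were taken. FPKM steps gave whole fragments for 100% of the 23230 genes above 0 (tolerance 0.02 fragments), with 13563594 to 23642755 fragments per library.

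Groups came from strain and treatment labels. Log2(FPKM + 1) of 13115 genes, those averaging 0.5 FPKM or more, was fitted with limma 3.58.1 in R 4.3.3 (lmFit, eBayes with a trend), using the 6 mice of each comparison or, for the interaction, all 12. P-values were adjusted by Benjamini-Hochberg over all tested genes, two-sided, with a threshold of 0.05. The fit was tested on simulated data. Alternatives were a pseudocount of 0.1, a filter of 1 FPKM or none, 3 rescalings, limma-voom on recovered fragments, 2 variance models, all 12 mice in a fit, a block for replicate number and leaving out single mice. The members, gene lists and tests were chosen with earlier results of these data known. Gene lists are given whole, with no set test. Named genes were the members, the called list genes with non-overlapping groups (at most 6 per comparison, by log2 fold change), the 8 most alike and markers beside a result. Tnf, Lta, Il27ra, Igtp, Irgm2, Ifngr1, in B6 Gbp3, between treated strains Ciita, and between untreated strains Ifngr2 were chosen after their values were seen. Promoter sequences are RefSeq's.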

Additional observations from a re-analysis of the deposited data

Results flagged for a closer look

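The response to anti-CD45RB differed between strains, by the interaction term of limma over all 12 mice, for 6 named genes that are not members. They are listed because they passed this test. Of the 29 tested genes of the Th1 pathway list, 4 were called lower in it and 0 higher. Of the 17 tested interferon-gamma-inducible genes, 1 was called lower and 0 higher. Of all tested genes 2.38% were called lower and 1.27% higher. As the SLE123 effect minus the B6 effect on the log2 scale, the difference was -1.96 for Ccl3 (limma adjusted p = 0.014), -1.74 for Ccl4 (0.0117), -2.09 for Ccl5 (2.3e-04), -1.01 for Nkg7 (0.0079), -1.32 for Irf8 (0.0105) and -2.35 for the natural killer marker Ncr1 (0.0019). In SLE123 mice alone, the treated mice differed from the untreated ones by 1.04 for Ccl3, 0.36 for Ccl4, -0.32 for Ccl5, 0.01 for Nkg7, -0.43 for Irf8 and -0.04 for Ncr1 on the log2 scale, and none of these passed the test. In the same interaction 5 of 7 natural killer, 5 of 6 myeloid, 5 of 5 basophil, 2 of 3 erythroid and 2 of 5 B cell markers were called lower, with median log2 differences of -1.62, -2.65, -1.87, -3.19 and -2.60, against 2.38% of all tested genes called lower. The part of these cells in the differences was not tested.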

How the results depend on the processing

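Of the members' values under the alternatives, 108 of 136 kept their direction and side of the threshold with treatment in B6, 133 of 136 in SLE123, 110 of 128 between untreated strains, 109 of 136 between treated strains and 161 of 176 in the interaction. In B6, the number called was 1 with no filter, and 2 to 5 with 1 mouse left out. In SLE123 it was 1 with all 12 mice in a fit and 0 with any mouse left out. Between untreated strains it was 2 with no filter and 2 to 4 with 1 mouse left out, and between treated strains 3 on the TPM scale, 3 with all 12 mice in a fit and 4 to 5 with 1 mouse left out. In the interaction it was 0 to 1 with 1 mouse left out. Directions changed on the TPM scale for Ifng in SLE123 (0.117), for Tbx21 (-0.056), Stat4 (-0.166) and Il18r1 (-0.342) between untreated strains, for Tbx21 (-0.011) and Il12rb2 (-0.135) between treated strains and for Tbx21 (0.045), Stat4 (0.184) and Il18r1 (0.10) in the interaction, where the median of all tested genes was 0.216, -0.379, -0.135 and 0.233. Centring gave -0.010 for Il12rb2 between treated strains and -0.029 for Il12rb1 in the interaction, and scaling without immunoglobulin genes gave 0.034 for Il18r1 between treated strains. With 1 mouse left out, the range crossed 0 for Ifng in SLE123 (-0.192 to 0.006), Il18r1 between untreated strains (-0.146 to 0.206), Il12rb2 between treated strains (-0.038 to 0.095) and, in the interaction, Il12rb1 (-0.042 to 0.090), Stat4 (-0.105 to 0.092) and Il18r1 (-0.268 to 0.084). The cause of these changes was not tested. The labels do not say whether replicate numbers pair the mice. Deviations from group means of same-numbered mice correlated at -0.140 and -0.094 in B6 and at 0.137, -0.161 and 0.266 in SLE123. With 3 mice a group these values cannot decide it. With the replicate block 0 members were called in B6, where only 2 pairs share a number. In that fit 0 of all 13115 tested genes were called, so the count says nothing about the members in particular. The number called was 0 in SLE123 and 0 in the interaction, where Il12rb1 changed to -0.065. Between treated strains it was 3, and there too only 2 numbers are shared, by mice of different strains. Between untreated strains the replicate block was not run, because only 1 number is shared. Depth limited Il12rb2 most, at 129 to 276 fragments per library.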

Other observations

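Lists of other T cell states were read beside the members. Of all tested genes, 8.74% were called higher and 6.12% lower with treatment in B6 mice, 22.8% and 20.1% between untreated strains and 29.6% and 22.5% between treated strains. Of 17 genes of activated and memory T cells, all tested, 10 were called higher with treatment in B6 mice and 0 lower (median log2 fold change 0.52), 0 were called in SLE123 mice, and 15 were called higher and 1 lower in untreated SLE123 against untreated B6 mice (median 1.27). Of 14 genes of naive T cells, 2 were called higher and 3 lower with treatment in B6 mice, and 12 were called lower and 0 higher in untreated SLE123 mice (median -1.18). Between treated strains 13 of the 17 were higher and 2 lower, and 13 of the 14 naive genes were lower.

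For the other helper programs, 5 of 8 Th2 genes, 4 of 8 Th17 genes and 8 of 8 follicular helper (Tfh) genes were tested. With treatment in B6 mice, the Th2 genes Gata3 and Il1rl1 were called higher and the Tfh genes Cxcr5 and Sh2d1a lower, and 0 Th2 and 0 Tfh genes were called in SLE123 mice. Between untreated strains 3 Th2, 3 Th17 and all 8 Tfh genes were called higher in SLE123, with a median log2 difference of 2.29 for Tfh genes against 0.34 for the Th1 members. Summed Tfh levels were 349 to 409 FPKM in untreated SLE123 and 71.1 to 85.6 FPKM in untreated B6 mice.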
